A study of Mus musculus with 2 samples.

Results

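The gene desert between En1 and Insig2 was examined for how its own DNA folds, in a capture Hi-C contact map of mouse limb buds. Its members were all pairs of 10 kb bins whose ends both lay in chr1:122510001-123060000 (mm9), a stretch of 550 kb with no protein-coding gene, with at least 20 kb between the starts of the bins. This gave 1431 bin pairs from 55 bins, of 111629 pairs at the same minimum distance in the whole map of chr1:119650001-124400000, or 1.28%. Members were chosen by position alone. All 1431 had at least 1 read pair, and together they held 324262 read pairs, with a median of 168 per bin pair and a range of 13 to 1820.

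The material came from wild-type embryos at E10.5, and fore- and hindlimb buds were used together. Single cells were fixed in 2% paraformaldehyde (PFA), and their chromatin was opened at the DpnII site GATC and religated with T4 ligase, so that neighbouring fragments became joined molecules that sequencing reads as pairs of positions. A SureSelect capture then enriched the library for the locus. The labels list 2 samples, and both titles carry replicate number 2; the deposited tables hold 1 merged map, so every value is the authors' pooled value with no SD, no n and no test.

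A gene desert is a long stretch without protein-coding genes. Such deserts often hold enhancers of a neighbouring developmental gene, and in mammals they commonly lie inside a topologically associating domain, a stretch whose positions contact each other more than they contact the outside. En1 encodes the homeobox factor Engrailed-1, which patterns the ventral side of the limb bud and is made in the ventral ectoderm there. The map averages over all cells of the limb buds, of which the ventral ectoderm is a small part.

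The whole coding-free stretch is chr1:122505874-123200929, from En1 to Insig2, a gene of sterol regulation, and the desert is its lower part. In GENCODE M1, on the same assembly as mm9 (NCBIM37), 1 gene lies in the desert. It is the long intergenic non-coding RNA B230209K01Rik (ENSMUSG00000086664.2), on the plus strand at chr1:122983982-123017533, with 1 transcript of 5 exons and 1 of 2 exons. The 300 bases around the start of its longer transcript, chr1:122983732-122984031, are shown because this is the only annotated gene in the desert. The shorter transcript starts at 122984104, outside this window. Capitals mark the first 50 bases of exon 1, and 250 bases before it are in lower case.
B230209K01Rik start: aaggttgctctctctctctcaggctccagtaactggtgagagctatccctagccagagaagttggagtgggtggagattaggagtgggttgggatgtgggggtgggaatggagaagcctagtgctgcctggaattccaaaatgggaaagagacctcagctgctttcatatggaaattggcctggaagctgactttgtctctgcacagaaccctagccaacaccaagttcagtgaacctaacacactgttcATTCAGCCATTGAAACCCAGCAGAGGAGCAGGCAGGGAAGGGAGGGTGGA
This window held 0 GATC sites, 0 CG dinucleotides and 52% G and C.

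The factor CTCF, which halts the cohesin complex that extrudes loops, binds a long motif, and a sequence match to the core of that motif was sought on both strands. A match lay in the desert, and its window is shown because it is the only one there. It stood on the plus strand at chr1:122637715-122637726, in the bin 122630001 to 122640000, 127.7 kb from the start of the desert. Capitals mark the matched bases, with 20 bases on each side, at chr1:122637695-122637746.
CTCF core match: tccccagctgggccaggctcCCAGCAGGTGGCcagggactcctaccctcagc
A match was thus in 1 of 55 desert bins (1.82%), against 28 of 420 bins in the rest of the map (6.67%). No stripe bin, boundary bin or end of an enriched pair named below held a match. With a match in only 1 desert bin, this absence says little. Only exact matches to a consensus of the core were counted, so weaker sites were not sought. A match describes the letters, not a bound site. The desert resembled the rest of the map in its median site number and base composition, but spanned a narrower range. Its bins had a median of 25 GATC sites (12 to 37), against 26 (11 to 47) in the rest. Their median share of G and C was 43.7% (40.3% to 47.7%), against 44.0% (34.7% to 57.0%).

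Coverage was good in most of the desert. A desert bin had a median total of 29268 read pairs over the whole map, against 22376 for all bins of the map, and 0 of the map's 56 low bins (under 25% of the median total) lay in it. The highest totals were 54423 at 122690001, 48042 at 122650001 and 47770 at 122620001. The lowest were 6844 at 122890001, 7168 at 122930001 and 12582 at 122800001. With 5 kb bins, 5 of the desert's 110 bins were low, at 122715001 with 2036 read pairs, 122795001 with 442, 122800001 with 14, 122890001 with 803 and 122935001 with 2579. They had 10 to 23 GATC sites, against 4 to 21 in the other 105 bins, so they were not short of sites. Their share of G and C was 38.4% to 41.8%, against a median of 43.8%. Across the 55 bins of 10 kb, the total rose with the number of GATC sites (Spearman 0.41) and with the share of G and C (0.52), as a description of bins from 1 library pool. In the rest of the map the same values were -0.03 for sites and 0.64 for G and C.

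At long range the desert made more contacts with itself than the average stretch of the map. The expected value of a pair was the mean balanced signal (KR value) over the whole map at the same distance, and the ratio of observed to expected (O/E) is used throughout, with exact Poisson 95% intervals that cover counting error only. In the distance classes O/E is a ratio of summed KR values, and the interval of the summed raw count was scaled to it. Such an interval takes no account of the unequal weights that balancing gives to bins. Between 20 and 90 kb the mean KR value of the desert was 316 against an expected 324, an O/E of 0.975 (0.971 to 0.980). It was 126 against 117 at 100 to 190 kb, an O/E of 1.08 (1.07 to 1.09). At 200 to 390 kb it was 97.3 against 67.7, an O/E of 1.44 (1.43 to 1.45). At 400 to 540 kb it was 104 against 39.4, an O/E of 2.63 (2.59 to 2.67) from 18356 read pairs. With this expected value the desert thus stood slightly under the map at short range, and its excess grew with distance. The O/E at 20 to 90 kb was 0.983 with 5 kb bins and 1.01 with the map without low bins. It was 1.001 with the median KR value per distance and 1.39 on raw counts. The direction at short range thus depended on the setting.

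The same gradient held pair by pair. The share of bin pairs with an O/E above 1 was 49.7% at 20 to 90 kb, 68.4% at 100 to 190 kb and 87.6% at 200 to 390 kb. At 400 to 540 kb all 120 pairs were above 1, with a median of 2.75 and a range of 1.2 to 3.84, where the median over the map's 6405 pairs was 0.856. The highest pair joined 122510001 and 122950001, 440 kb apart, with 257 read pairs and an O/E of 3.84 (3.38 to 4.34). The pair of the desert's outermost bins, 122510001 and 123050001, had 193 read pairs and an O/E of 3.72 (3.22 to 4.29). Both lie in the corner of the O/E map where the En1 end meets the Insig2 end.

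**Figure D1:**
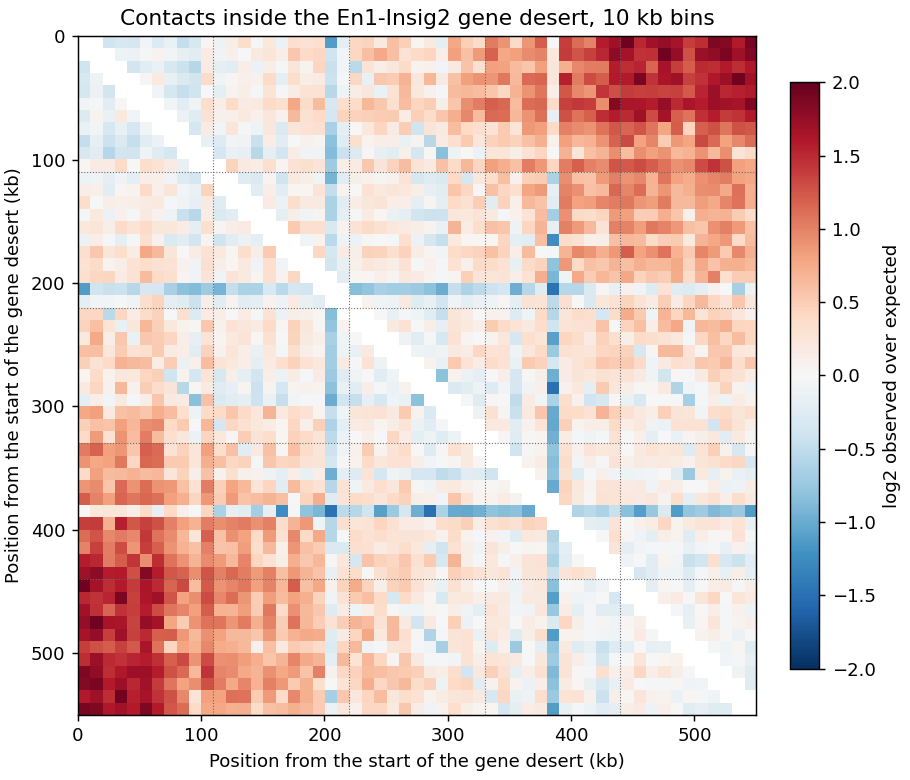
O/E on a log2 scale for each pair of 10 kb bins in the desert, plotted by distance from its start in kb, with dotted lines at the limits of 5 blocks of 110 kb and the diagonal left blank. The corner that joins the first and last block is the most enriched, and the bins at 200 and 380 kb appear as pale or blue lines.

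Other stretches of the map gave a smaller excess. The longest other coding-free stretch of the map lies above Ddx18, a helicase gene, and 550 kb of it were taken (chr1:123470001-124020000). There the O/E was 0.958, 1.02, 1.21 and 1.78 over the same 4 classes, from 144734 read pairs, and 4 of its bins were low. In 7 windows of the desert's length that tile the map outward from it, and that hold genes and domain boundaries, the O/E at 400 to 540 kb ran from 0.554 to 1.32. The highest of these windows overlapped the stretch above Ddx18. Another window, chr1:119760001-120310000, was poorly covered, with 38 of its 55 bins low and only 31954 read pairs. The long-range level of the desert was therefore above that of all 8 comparison stretches, with counting intervals that did not overlap, while the spread between embryos could not be seen.

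The decay of contacts with distance showed the same in another form. The mean KR value in the desert fell from 662 at 20 kb to 152 at 100 kb, a 4.36-fold fall, close to the map's 4.73-fold fall. From 100 to 500 kb it fell 1.37-fold, to 111, where the map fell 4.27-fold, to 34.7. Between 200 and 500 kb the desert formed a plateau, with mean KR values from 90.04 at 370 kb to 111 at 500 kb, while the stretch above Ddx18 ran from 64.4 to 96.3. At the far end of this plateau few bin pairs carried each mean, 5 at 500 kb, with at least 832 read pairs at every distance.

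On log scales, the slope of the KR value against distance was −0.68 (SE 0.026 over 29 distances, as a description, since neighbouring distances share bins) in the desert from 20 to 300 kb, and −0.86 (0.020) in the map. It was −0.75 in the stretch above Ddx18 and −0.97 to −0.69 in the tiled windows, so the window directly below the desert, which holds En1, was as shallow over this range. The slopes hardly differed from 20 to 90 kb, at −0.92 in the desert and −0.97 in the map. They parted from 100 to 500 kb, at −0.18 (0.032) in the desert, −0.46 in the stretch above Ddx18, −0.93 in the map and −1.43 to −0.70 in the windows. The −1.43 came from the poorly covered window, and the next steepest was −1.30. The flat slope of the desert was thus a feature of distances above 100 kb.

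**Figure D2:**
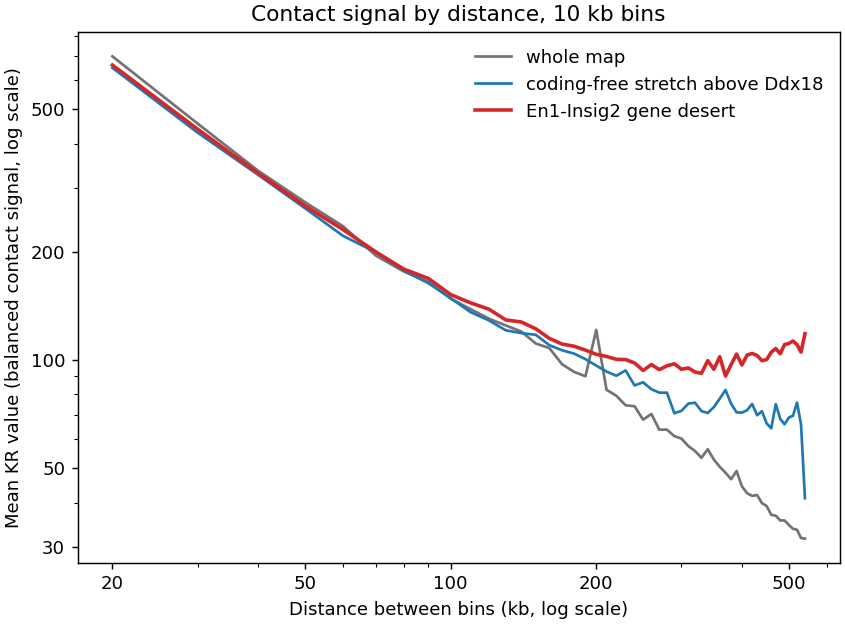
Mean KR value (balanced contact signal) against the distance between bins in kb, both on log scales, for the desert, the coding-free stretch above Ddx18 and the whole map. The curves run together to about 100 kb, and the desert then levels off between 90.04 and 111 from 200 to 500 kb while the map falls to 34.7.

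A single distance needs a separate reading. At 200 kb the map's mean KR value was 121, against 89.9 at 190 kb and 82.5 at 210 kb, and 1 bin pair outside the desert, with 98 read pairs in poorly covered bins, made up 27.7% of the sum at that distance. The desert's O/E at 200 kb was 0.855 with it and 1.18 without it, beside 1.18 at 190 kb and 1.24 at 210 kb. The desert's own value there, 103, lay between its neighbours. All 34 distances above 200 kb had an O/E over 1.

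Where in the desert the excess lay was read from 5 blocks of 110 kb, numbered from En1 to Insig2, which need no boundary call. Within single blocks the O/E was 0.902, 0.969, 0.985, 1.04 and 0.990 from En1 to Insig2. Adjacent blocks gave 1.02, 1.02, 1.09 and 0.991. The excess was between blocks far apart, with 1.89 between blocks 1 and 4, 1.59 between 2 and 5, and 2.58 (2.54 to 2.61, 18783 read pairs) between 1 and 5, the highest of the 15 block pairs. Block 1 with itself, beside En1, was the lowest. Blocks with 1 block between them gave 1.24 for 1 and 3, 1.28 for 2 and 4, and 1.17 for 3 and 5.

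When the expected value was taken from the desert's own mean at each distance, the 15 block pairs ran from 0.906 (blocks 2 and 5) to 1.11 (1 and 4), and blocks 1 and 5 stood at 1.01. That last value says little, because all desert pairs from 440 to 540 kb, 66 of the 121 pairs of blocks 1 and 5, lie in that block pair and set their own expected value. In the same layout, the first and last block of the stretch above Ddx18 had an O/E of 1.77, and those of the tiled windows had 0.353 to 1.49. The 0.353 came from the poorly covered window, with 264 read pairs, and the next lowest was 0.525.

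**Figure D3:**
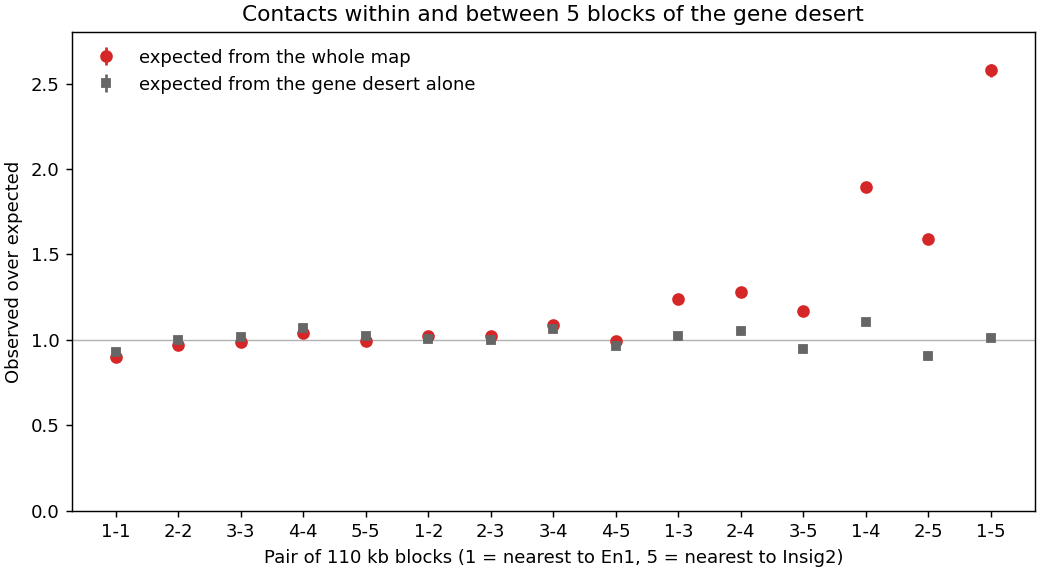
O/E for the 15 pairs of 110 kb blocks, ordered by how far apart the blocks are, with the expected value from the whole map (circles) or from the desert alone (squares); bars are exact Poisson 95% intervals, mostly smaller than the symbols. With the map's expected value the pairs rise to 2.58 between blocks 1 and 5, and with the desert's own they stay between 0.906 and 1.11.

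Bins took part unevenly. With read pairs inside the bin itself left out, a desert bin sent a median of 71.4% of its contacts in the map to other desert bins. The share ran from 46.5% at 123050001, the last bin towards Insig2, to 76.2% at 122680001. It was 47.9% at 122510001, the bin at the other edge. The share was not corrected for position, and an edge bin has its near partners on 1 side outside the desert. The O/E of a bin with partners in the desert at 100 kb or more had a median of 1.34 and ran to 1.85 at 122560001. This range was not corrected for position. O/E rose with distance, and bins near the ends of the desert reach more distant partners than bins in its middle. Among the bins of B230209K01Rik, near the Insig2 end, the values ran from 1.28 to 1.55. With the desert's own expected value they ran from 0.828 to 1.05. With the map's expected value, 52 of 55 bins were above 1. The same count for other stretches is not given here. The exceptions in the desert were 122890001 at 0.696, 122710001 at 0.739 and 122800001 at 0.953. These are the pale lines in the map of O/E values. The bin 122710001 held 46.1% of its read pairs within itself and 122890001 held 30.6%, against a median of 22.0%. All 3, and the next lowest bin, 122790001 at 1.02, contain a low 5 kb bin; the part of that in their long-range values was not tested. The bin 122930001 also contains one, had 5.40% of its read pairs within itself, and stood at 1.43.

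No strong sub-domains were seen. The insulation score of a bin is the log2 of the mean KR value across it, between the 50 kb on either side, relative to the median of the desert, and a boundary is a local minimum that lies at least 0.2 under its surroundings (its prominence). Of 45 bins that could be scored inside the desert, 1 was called (2.22%), against 5.83% over the desert and the 7 windows together. That background of 21 calls included 9 in the poorly covered window, and each other window had 1 or 2. The desert's call lay in the bin 122760001 to 122770000, 250 kb from the start, with a score of −0.09, a prominence of 0.20 and 7326 read pairs in its square. This is just inside the threshold. The next highest prominences, 0.19 at 122940001 and 0.17 at 122840001, were just outside it. With a 100 kb window 0 bins were called, and with a 30 kb window 3 were.

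Scores varied little along the desert. They ran from −0.12 to 0.23, a range of 0.35 with an SD of 0.07 over bins. The range was 0.41 in the stretch above Ddx18 and 0.41 to 1.7 in the tiled windows, and the highest prominence in the windows was 0.27 to 1.53. Counting error was small beside these ranges, at 0.016 on the log2 scale for a square of median count in the desert and 0.022 above Ddx18. The highest score of the desert was in its least covered bin, at 380 kb.

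Pairs that crossed the called bin were not depleted. At 110 to 300 kb, distances outside the scored squares, 380 crossing pairs had a mean O/E of 1.29 and 276 pairs on 1 side had 1.09, a ratio of 1.18, where a working boundary gives a ratio under 1. Crossing pairs are longer on average and O/E rose with distance here: with the desert's own expected value the ratio was 1.02, and at 20 to 100 kb with the map's expected value it was 1.00.

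**Figure D4:**
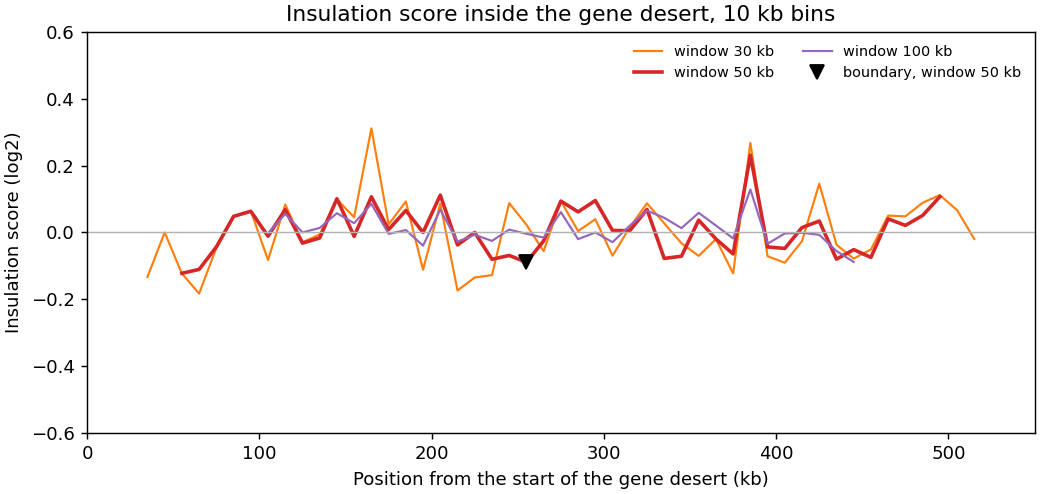
Insulation score (log2) against distance from the start of the desert in kb, for windows of 30, 50 and 100 kb, with the 1 boundary called at 50 kb marked by a triangle. Scores at 50 kb stay between −0.12 and 0.23, and the wider window flattens them.

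Stripes, lines of contacts that run from 1 bin to many partners and that can arise where loop extrusion is halted at one side, were few and shallow. A bin side was called when its summed O/E over desert partners at 50 kb or more was at least 1.2 times that of the bins 2 and 3 away on each side (the contrast), and above them at 70% or more of its partners. Of 76 bin sides, 5 were called (6.58%), against 6.6% over the desert and the tiled windows together, so the desert's share was that of the background. In the stretch above Ddx18, 11 of 76 were called. At a contrast of 1.5 no bin side of the desert was called, and at 1.1 there were 23.

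A pair of neighbouring bins near En1, 122560001 and 122570001, had stripes towards Insig2. The bin 122560001 had an O/E of 1.65 (1.61 to 1.68) against 1.30 in its flanks, a contrast of 1.27, and stood above them at 43 of 45 partners. The bin 122570001 had 1.52 (1.5 to 1.55) against 1.2, a contrast of 1.27, at 42 of 44 partners. The contrast of 122560001 was similar at each range, at 1.21 for partners at 50 to 90 kb and 1.28, 1.25 and 1.27 in the 3 longer classes, while its O/E rose from 1.18 to 3.14. These bins also lay on a slope along the desert. Around 122560001 the O/E was 1.36, 1.54 and 1.38 in the 3 bins towards En1, and 1.5, 1.25 and 1.11 in the 3 bins away from it. The flank towards En1 was thus higher than the other.

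The bin 122680001 was the only one with stripes on both sides. Towards Insig2 it had an O/E of 1.42 (1.38 to 1.46) against 1.1, a contrast of 1.29 and 31 of 33 partners above the flanks. Towards En1 it had 1.21 (1.17 to 1.26) against 0.964, a contrast of 1.26, and all 13 partners above. Its flank includes the bin 122710001, described above, at 0.679 and 0.647 on the 2 sides, which lowers that flank. On the other side of it, 122660001 stood at 1.40 towards Insig2, close to the stripe itself.

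The bin 122740001 had the weakest stripe, towards En1, with an O/E of 1.19 (1.16 to 1.23) against 0.970, a contrast of 1.23 and 18 of 19 partners. Its flank also includes 122710001, at 0.705, and its neighbours towards Insig2 stood at 1.17, 1.15 and 1.22. Just outside the threshold was 122690001, with contrasts of 1.19 towards Insig2 and 1.18 towards En1. With 5 kb bins, 15 of 144 bin sides were called, with contrasts of 1.2 to 1.35, from 11 bins. The share over the tiled windows was not computed at this bin size, so this count has no background beside it. They included 122560001, 122565001 and 122575001 near En1, and 122680001 and 122685001. A call at 122715001 rested on 345 read pairs in a low bin.

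**Figure D5:**
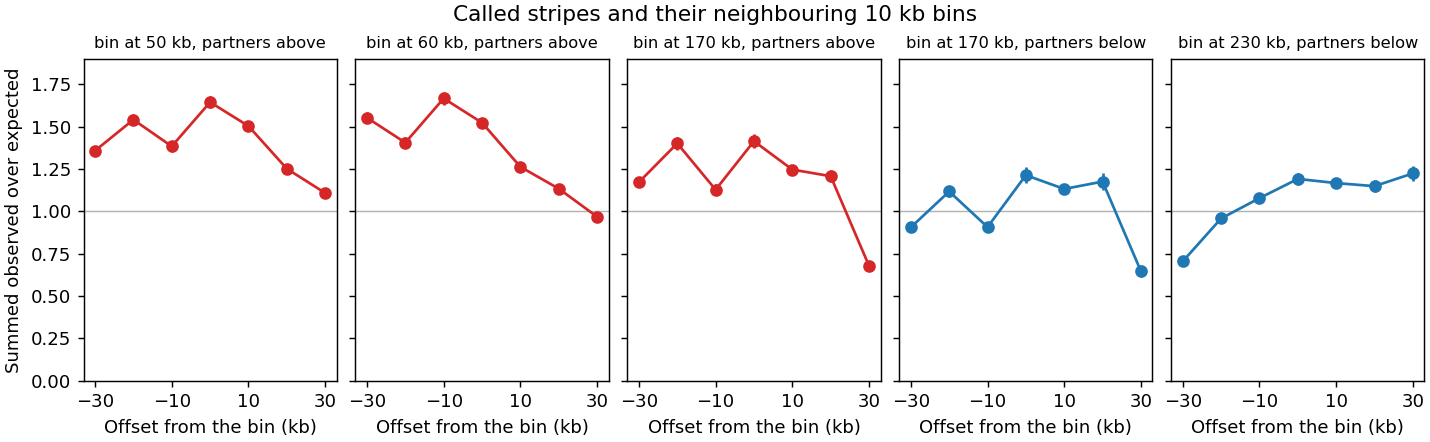
Summed O/E of each called stripe (offset 0) and of the 3 bins on each side, by offset in kb, with exact Poisson 95% intervals; the titles give the distance of the bin from the start of the desert, and partners above lie towards Insig2 (red) and below towards En1 (blue). The called bins rise little over their neighbours, and the low point at offset 30 in both panels of the bin at 170 kb, and at −30 in the last panel, is the bin at 200 kb.

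Focal pairs are the sign of a loop between 2 bins, and their share in the desert was below that of the map with 10 kb bins and above it with 5 kb bins. A pair was called when it had at least 10 read pairs, a lower bound of O/E over 1.5, and an O/E over 1.5 times that of a ring around it, 2 to 5 bins out. With 10 kb bins this called 4 of 1431 pairs (0.28%), in 3 clusters, against 1.53% of 23600 pairs at the same distances in the map. With 5 kb bins it called 112 of 5465 pairs (2.05%), against 1.54% in the map, and 102 of the 112 were at 200 kb or more. Without the ring, at 10 kb, 239 (16.7%) passed, against 4.42% in the map. Up to 190 kb these were 0 pairs, where the map had 1.34% at 20 to 90 kb and 2.22% at 100 to 190 kb. At 200 to 390 kb they were 136 of 510 (26.7%), against 5.42% in the map. At 400 to 540 kb they were 103 of 120 (85.8%), against 6.42% in the map. At 10 kb, pairs that passed on their own level thus far outnumbered those that also passed the ring. With the desert's own expected value 0 pairs of 10 kb bins were called.

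The most enriched call joined 122560001 and 122940001, 380 kb apart. It had 218 read pairs where 61.3 were expected, an O/E of 3.55 (3.10 to 4.06) against 2.32 in its ring. Its 4 pairs of 5 kb bins held 81, 56, 47 and 34 read pairs, the most between 122560001 and 122940001, so that no single 5 kb pair carried it. Its neighbours stood at 1.91 to 3.11, and it was not called when low bins were left out of the expected value, and neither was 122570001 with 122840001. The next joined 122680001 and 122950001, 270 kb apart, with 187 read pairs and an O/E of 2.31 (1.99 to 2.66) against a ring of 1.48. The third cluster joined 122560001 and 122570001 to 122840001, with 163 and 241 read pairs and O/E of 2.29 (1.95 to 2.67) and 2.20 (1.93 to 2.50). The bins 122560001, 122570001 and 122680001, are the stripe bins above, and their calls share those bins' read pairs.

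The 7 bins named as stripes or ends of enriched pairs had totals of 23874 to 41003 read pairs, 18 to 29 GATC sites and 41.0% to 46.1% G and C, inside the ranges of the desert. They held 0 matches to the CTCF core, of which the whole desert had 1. The 112 calls with 5 kb bins formed 24 clusters. The bins with the most calls were 122575001 with 12 and 122560001 with 10, both near En1. Those calls had a median of 45.5 read pairs.

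Depleted pairs, with an upper bound of O/E under 0.5 where at least 10 read pairs were expected, numbered 0 of 1431, against 2.54% in the map. The lowest pair joined 122790001 and 122890001, with 19 read pairs where 53.5 were expected, an O/E of 0.355 (0.214 to 0.554). The bin 122890001 took part in 4 of the 5 lowest pairs. The other joined 122510001 and 122710001, with 61 read pairs and an O/E of 0.459, at the distance of 200 kb where the expected value was raised.

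The bins of B230209K01Rik differed among themselves in long-range contacts. With desert partners at 100 kb or more towards En1, the 4 bins from 122980001 to 123020000 had O/E of 1.55, 1.45, 1.28 and 1.51. Against the desert's own expected value they had 1.05, 0.961, 0.828 and 0.959. No end of the 4 enriched pairs of 10 kb bins lay in them. With 5 kb bins, 16 of the 224 ends of called pairs (7.14%) did, and these bins are 8 of the desert's 110 (7.27%). Among them was the 5 kb call with the highest lower bound in the desert, 122520001 with 122985001, with 52 read pairs and an O/E of 5.12 (3.82 to 6.71). At 10 kb the pair of 122520001 and 122980001 had 138 read pairs and an O/E of 3.81 (3.20 to 4.50), the second highest in the desert. A contact map holds no expression, so whether the transcript was made was not measured here.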

How the data were processed

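Both kinds of table were used, at 10 kb and, as an alternative, 5 kb. The authors deposited raw counts, the number of read pairs that join each pair of bins, without normalization. The KR signal was deposited by the authors as a balanced contact signal, read here as Knight-Ruiz balancing from the deposited file names. Those names also give HiCUP and a mapping quality minimum of 30. The submitters' processing notes name Bowtie2 2.3.4.1, Juicer 1.7.6, SAMtools and the build mm9, with no role for each. Tables at larger bins were not used here, and neither were the probe positions.

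Expected counts were the mean KR value per distance over the map, divided by the balancing factors of both bins, which were recovered from the 2 tables. Missing bin pairs were taken as 0, and bins with no KR value were left out. Balancing raises the noise of poorly covered bins. All 1431 members passed, since no filter on low values was applied to them; the filters on counts belong to the calls. Python 3.11.15, numpy 2.4.6, scipy 1.17.1 and pandas 2.3.3 were used, and the measures were tested on simulated data with known answers. Genes and sequence came from GENCODE M1 and NCBIM37, and all coordinates are 1-based. Read pairs carry no molecular identifiers, so intervals cover counting error only. With 1 merged map there is no test between samples.

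The members, lists and rules were chosen with earlier results of these data known. Named were all boundaries and stripes if 6 or fewer, up to 6 clusters of enriched pairs, the highest and lowest block pair, the 3 highest and 3 lowest totals, and every annotated transcript. The 2 sequences, and bins or pairs outside this rule, were chosen after their values were seen. Alternatives varied the expected value, bin size, balancing, distances and thresholds.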

Additional observations from a re-analysis of the deposited data

How the results depend on the processing

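The long-range excess kept its direction under every alternative run, at 2.56 with the expected value from the map without low bins, 3.07 with the median KR value per distance, 2.54 with 5 kb bins and 3.72 with raw counts, which leave coverage uncorrected. An expected value from pairs outside the desert, an alternative chosen after seeing the data, gave 2.73. The O/E of blocks 1 and 5 was 2.52, 3.03, 2.46 and 3.69 under the first 4, and 1.01 with the desert's own expected value. The decay slope was −0.48 from 20 to 500 kb, −0.57 from 50 to 300 kb and −0.18 from 100 to 500 kb. The other block pairs gave 70 values under alternatives, of which 63 moved beyond their counting interval, and the other distance classes gave 15, of which 13 did.

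Calls depended on their thresholds. Boundaries numbered 3 with a 30 kb window, 0 with 100 kb, 7 at a prominence of 0.1, 0 at 0.4, 6 on raw counts, 2 with 5 kb bins and 3 on O/E. The crossing ratio was 1.27 at a prominence of 0.1, 1.23 with the median KR value, 1.02 with the desert's own expected value and 1.51 at 110 to 500 kb, and no value could be had at 0.4. Stripes numbered 23 at a contrast of 1.1, 0 at 1.5, 2 with partners from 20 kb, 3 from 100 kb, 15 with 5 kb bins and 3 with partners over the whole map. The stripe of 122680001 towards Insig2 was called in 8 of 9 alternatives and that of 122740001 in 5 of 9. Enriched pairs numbered 147 at a threshold of 1.2, 0 at 2, 239 without the ring, 200 with the expected value from distance alone, 112 with 5 kb bins and 0 with the desert's own expected value. With the expected value from the map without low bins, 5 pairs were called, and 2 of the 4 remained. The pairs 122560001 with 122940001 and 122570001 with 122840001 were not called. With the median KR value 6 pairs were called, including all 4. With the expected value from distance alone, 122560001 with 122840001 was not called. Depleted pairs numbered 18 at 0.67 and 1 with 5 kb bins. The cause was not tested where none is given by the setting itself.

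No paired analysis was possible because the samples are merged in 1 map, and for the same reason leaving out a sample was not run. No value here says how embryos differ. The printed intervals of single 10 kb pairs, with a median of 168 read pairs, give counting error alone. The 5 kb pairs, with a median of 42, have a larger counting error relative to their counts.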
